A study of Mus musculus with 6 samples.

Results

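The proteasome genes of mouse 4-cell embryos were taken as every row of the expression tables whose symbol starts with Psma to Psmg and a digit, leaving out 4 pseudogene rows. The rule gave 50 of 55335 genes: 19 of the core particle (Psma, Psmb), 7 labelled as ATPases (Psmc), 14 named as non-ATPases of the regulatory particle (Psmd, of which Psmd5, Psmd9 and Psmd10 are chaperones of the base rather than subunits), 6 activators and regulators (Psme, Psmf) and 4 assembly chaperones (Psmg). Psmc3ip met the rule by its symbol alone. It encodes a factor of meiotic recombination and is no ATPase, so its values are given apart where they matter. Psme2b is a near copy of Psme2.

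RNA was measured by Smart-Seq2, which copies polyadenylated RNA with an oligo-dT primer, suits tiny samples, and amplifies the cDNA before fragmentation. There were 3 control libraries (Con) and 3 libraries from embryos treated with DRB, an inhibitor of the kinase that releases RNA polymerase II into elongation. Zygotes were kept in 20 µM DRB for 20 h beginning 6 h after fertilization, then washed and grown for a further 26 h in KSOM medium without it, so the 4-cell embryos were collected after recovery. No strain, no number of embryos per library and no vehicle for Con is stated in the labels, and no source says that replicates came from separate matings or cultures. The p-values therefore reflect the variation among these libraries alone, and it may be technical. The comparison asks which proteasome transcripts differed in 4-cell embryos after the early block of transcription. The labels give times for DRB alone and no collection time for Con. A difference in embryo age or pace of development therefore cannot be told apart from the treatment.

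The proteasome degrades proteins that carry ubiquitin chains. Its core particle is a barrel of outer alpha rings and inner beta rings, with the cutting sites on 3 of the beta subunits. The regulatory particle caps the barrel: its base holds the ATPases that unfold substrates, and its lid removes ubiquitin. Alternative activators can take the place of that cap, and dedicated chaperones build the rings. Early embryos degrade many proteins stored in the egg while the zygotic genome becomes active.

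The deposited values are FPKM (fragment counts scaled by transcript length and library total), which can be compared between genes as a level per length. Estimated depth was 22000000 to 25300000 fragments per library. Mitochondrial genes took 12.2% to 20.0% of the FPKM total in Con libraries and 23.9% to 26.4% in DRB libraries, which lowers the values of the other genes. Pairs of Con libraries correlated at 0.935 to 0.944 on the log2 scale, pairs of DRB libraries at 0.909 to 0.937 and mixed pairs at 0.869 to 0.915, with DRB replicate 1 farthest from the rest. Of 14 markers of oocytes and cleavage embryos 13 reached 1 FPKM in every library. In contrast, 6 of 8 cumulus and granulosa cell markers (Has2, Ptx3, Cyp19a1, Fshr, Inha and Amh) were at 0 in every library. Amhr2, from the same list, was at 17.9 to 28.2 FPKM and made up nearly all of its sum, and Tnfaip6 reached at most 0.05 FPKM. Summed over each list, cumulus markers came to 17.9 to 23.4 FPKM in Con and 19.9 to 28.3 in DRB, sperm markers to 8.97 to 19.1 and 7.04 to 17.4, and blood markers to 74.3 to 114.0 and 47.0 to 87.3. Of these 3 lists only 1 cumulus, 1 sperm and 4 blood markers reached 1 FPKM in at least 3 libraries and were tested. Limma called 0 of them, where 2.48% of all tested genes were called in either direction. At an unadjusted p below 0.05 there were also 0 (backgrounds 10.5% lower and 7.53% higher). All 14 oocyte and embryo markers were tested, and 0 were called, which in lists this short does not show equal levels. Of these 14, 2 had an unadjusted p below 0.05 (limma), Padi6 and Obox6. Both were lower on average in DRB, where 10.5% of all tested genes were lower at that level.

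Levels of most genes of the core particle and of the ATPase ring were lower on average in DRB, while 3 of 5 tested activator genes were higher on average. Of the 50 genes 46 reached 1 FPKM in at least 3 libraries and were tested. The log2 fold change of DRB over Con was negative for 40 of the 46, where 56.0% of all 11893 tested genes were negative, and its median was -0.50 beside -0.09 over all tested genes. Limma with Benjamini-Hochberg adjustment over all tested genes called 3 of the 46 lower at an adjusted p below 0.05, Psmb3, Psmg3 and Psmc4, where 0.950% of all tested genes were called lower and 2.48% in either direction. It called 0 higher, against a background of 1.53%. At an unadjusted p below 0.05, 14 were lower and 2 higher (backgrounds 10.5% and 7.53%). In 18 of the 46 all DRB libraries lay below all Con libraries, against 13.9% of tested genes, and in 2 all lay above, against 9.85%. Psmc3ip was 1 of these 2. Without Psmc3ip and Psme2b, 40 of 45 tested genes were negative and 5 positive, and in 1 all DRB libraries lay above. Short protein-coding genes, with a longest transcript under 1500 bases, had a median log2 fold change of -0.27 over 1456 genes. FPKM is scaled to library totals, so a smaller share of the RNA and less RNA per embryo or cell cannot be told apart.

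The sign count rests in part on single libraries and on the scaling. Without DRB replicate 1 it was 36 negative and 10 positive with 0 genes called lower, and without Con replicate 1 the median was -0.35. With mitochondrial genes left out, which moved the median of all genes to 0.017, the split was also 36 to 10, with Psmb10, Psmd3, Psmg1 and Psmg4 changing sign.

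**Figure D1:**
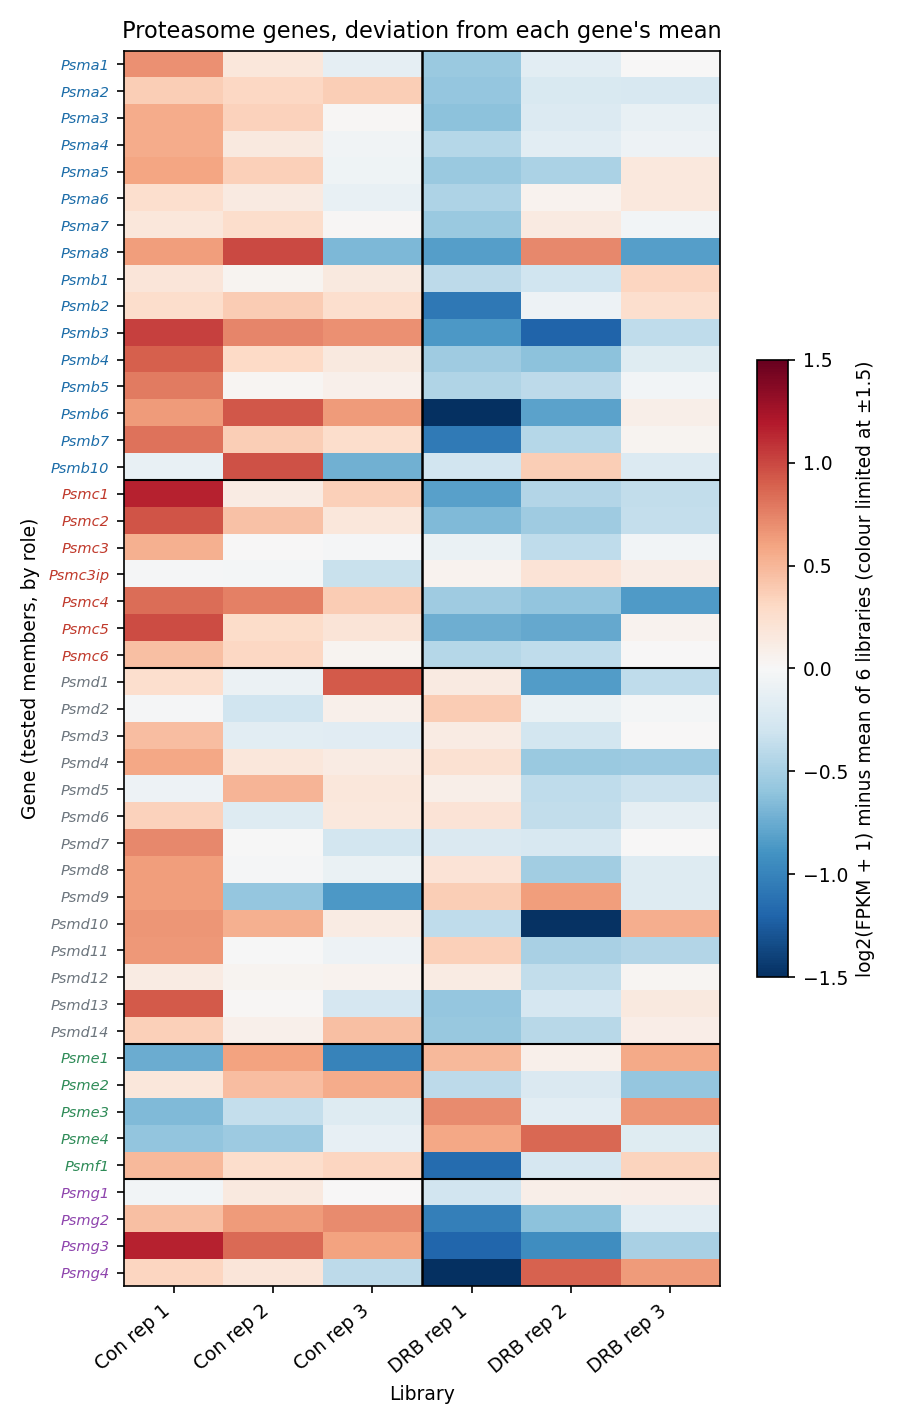
Deviation of log2(FPKM + 1) from each gene's mean over the 6 libraries (colour, limited at 1.5 on either side), for the 46 tested proteasome genes (rows, grouped and coloured by role) in each library (columns). Most core and ATPase rows are red in Con and blue in DRB, whereas non-ATPase rows are mixed within each group.

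Summed over all 50 genes, proteasome RNA made up 0.926% of all FPKM in Con replicate 1, 0.775% in Con replicate 2 and 0.749% in Con replicate 3. The DRB libraries stood at 0.546%, 0.544% and 0.603% in the same order. The groups did not overlap, and the means were 0.816% ± 0.0953 in Con and 0.564% ± 0.0336 in DRB (SD, n = 3 each). With mitochondrial genes taken out of the total the shares were 1.05%, 0.953% and 0.936% against 0.735%, 0.716% and 0.819%, again without overlap. The core genes' share was 0.559% ± 0.0573 for Con and 0.375% ± 0.0509 for DRB (SD, n = 3). Activators went the other way, at 0.0119%, 0.0151% and 0.0158% in Con and 0.0231%, 0.0181% and 0.0169% in DRB. These shares were not tested.

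**Figure D2:**
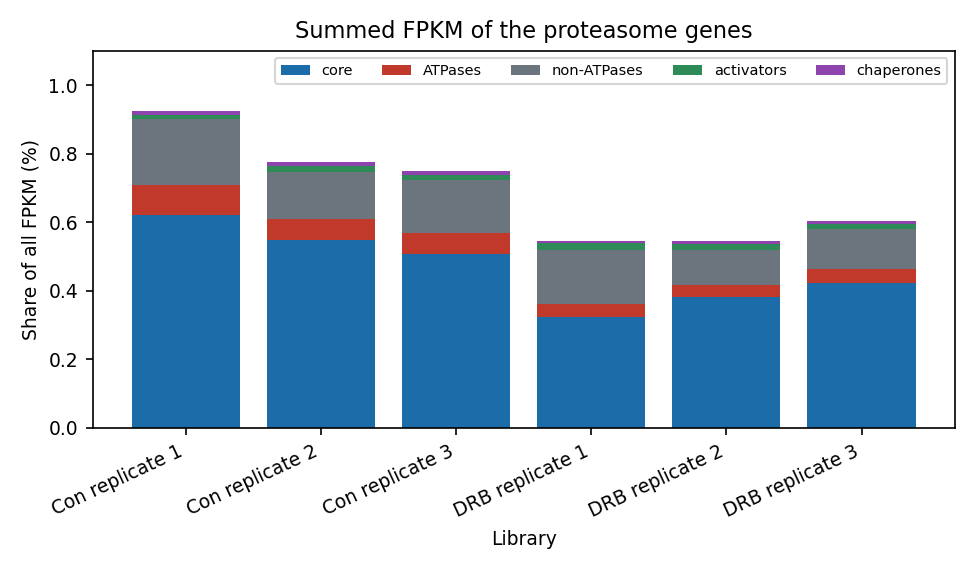
Summed FPKM of the proteasome genes as a percentage of all FPKM (vertical axis) in each of the 6 libraries (horizontal axis), stacked by role. The Con bars reach 0.749% to 0.926% and the DRB bars 0.544% to 0.603%.

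Within the core particle the beta-ring genes had the more negative median. All 7 beta-ring genes were negative on the log2 scale (median -0.89), and in 6 of the 7 the groups did not overlap. All 7 alpha-ring genes were negative too, with a median of -0.47 and no overlap in 3 of 7. The difference between the rings was not tested. Median GC content was 45.0% in the alpha ring and 51.0% in the beta ring. With the GC trend removed Psma2 moved from -0.70 to -0.82 and Psma6 from -0.17 to -0.28. In the beta ring Psmb5 moved from -0.59 to -0.38 and Psmb6 from -1.47 to -1.38, while Psmb7 went the other way, from -0.96 to -1.09. Over the 16 tested core genes 1 was called lower, 6 were lower at an unadjusted p below 0.05 and 9 had all DRB libraries below all Con libraries. Over all tested genes these shares were 0.950%, 10.5% and 13.9%.

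Psmb3, a structural beta subunit without a cutting site, fell. It was at 294 FPKM, 239.7 FPKM and 230.4 FPKM in Con and at 78.5 FPKM, 61.8 FPKM and 109.6 FPKM in DRB, each time in the order of replicates 1 to 3, as in all values below. Every DRB library lay below every Con library, and the highest DRB value was under the lowest Con value by more than either group's SD. The means were 255 ± 34.2 and 83.3 ± 24.2 FPKM (SD, n = 3 each), a Con mean 3.05 times the DRB mean. The log2 fold change was -1.63 with a standard error of 0.28 (limma, adjusted p = 0.0168). The call was lost without Con replicate 2 or 3 or DRB replicate 1 or 2, with limma adjusted p-values of 0.0504 to 0.0604, and kept without Con replicate 1 or DRB replicate 3. In the order of mean levels among the 46 genes Psmb3 was at place 16 in Con and at place 21 in DRB.

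The 3 catalytic beta subunits were lower on average in DRB, and none was called. Psmb6, which carries the caspase-like site, was at 356 FPKM, 438 FPKM and 357 FPKM in Con and at 81.0 FPKM, 131 FPKM and 243 FPKM in DRB. The groups did not overlap, but the DRB libraries spread widely. Its log2 fold change was -1.47 (95% interval -2.27 to -0.67, limma adjusted p = 0.0624), and without DRB replicate 3, the highest of the DRB libraries, it passed the threshold at an adjusted p of 0.0168. By mean level it was at place 5 in Con and 16 in DRB.

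Psmb7, with the trypsin-like site, was at 461 FPKM, 341 FPKM and 315 FPKM in Con and at 126 FPKM, 196 FPKM and 269 FPKM in DRB. Its groups did not overlap either, at a log2 fold change of -0.96 (95% interval -1.66 to -0.27, limma adjusted p = 0.135). Psmb5, with the chymotrypsin-like site, was at 244 FPKM, 145 FPKM and 150.2 FPKM in Con and at 104 FPKM, 108 FPKM and 138 FPKM in DRB. The highest DRB library came close to the lowest Con libraries, and the log2 fold change was -0.59 (95% interval -1.23 to 0.04), or -0.35 without Con replicate 1. A processed pseudogene, Gm3375, matches Psmb5 at 98.9% over 796 bases and took up to 107.4 FPKM, so reads of the pair may have been split between them.

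The inducible subunits that replace the catalytic ones in the immunoproteasome were scarce, except Psmb10. Psmb8 reached at most 0.65 FPKM and Psmb9 at most 1.81 FPKM in any library, and neither passed the filter. Psmb10, the counterpart of Psmb7, was at 45.7 FPKM, 96.5 FPKM and 29.6 FPKM in Con and at 40.1 FPKM, 64.2 FPKM and 42.6 FPKM in DRB. The groups overlapped fully, and the log2 fold change of -0.08 had a 95% interval of -0.99 to 0.83. The ratio of Psmb10 to Psmb7 was 0.0990, 0.283 and 0.0942 in Con and 0.320, 0.328 and 0.158 in DRB, overlapping between groups. Psmb11, the thymus subunit, stayed below 1 FPKM, and Psma8, the alpha subunit of germ cells, reached at most 2.53 FPKM and was at 0 in DRB replicates 1 and 3.

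Among the other beta subunits Psmb2 was the most abundant, at 639 FPKM, 696 FPKM and 635 FPKM in Con and 253 FPKM, 505 FPKM and 633 FPKM in DRB. Its DRB replicate 3 was just under Con, and the log2 fold change of -0.60 was -0.21 without DRB replicate 1. Psmb4 had a log2 fold change of -0.89 (limma adjusted p = 0.126) without overlap, and Psmb1 one of -0.25 with overlap.

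By mean over all 6 libraries the most abundant alpha subunit was Psma6, although Psma3 was higher in each Con library. Psma6 was at 1202 FPKM, 1110.2 FPKM and 935 FPKM in Con and 734 FPKM, 1048 FPKM and 1127 FPKM in DRB. Its groups overlapped and its log2 fold change was -0.17, the highest of the alpha ring, and 0.014 without DRB replicate 1. Psma2 had the lowest, -0.70 (95% interval -1.23 to -0.16, limma adjusted p = 0.157). It was at 290 FPKM, 277 FPKM and 288 FPKM in Con and 150 FPKM, 190.4 FPKM and 189.6 FPKM in DRB, with tight groups that did not overlap. The other 5 alpha-ring genes ranged from -0.62 (Psma3) to -0.31 (Psma7). Psma3 shares 665 identical bases with the pseudogene Gm13835, which was listed at up to 134.1 FPKM.

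**Figure D3:**
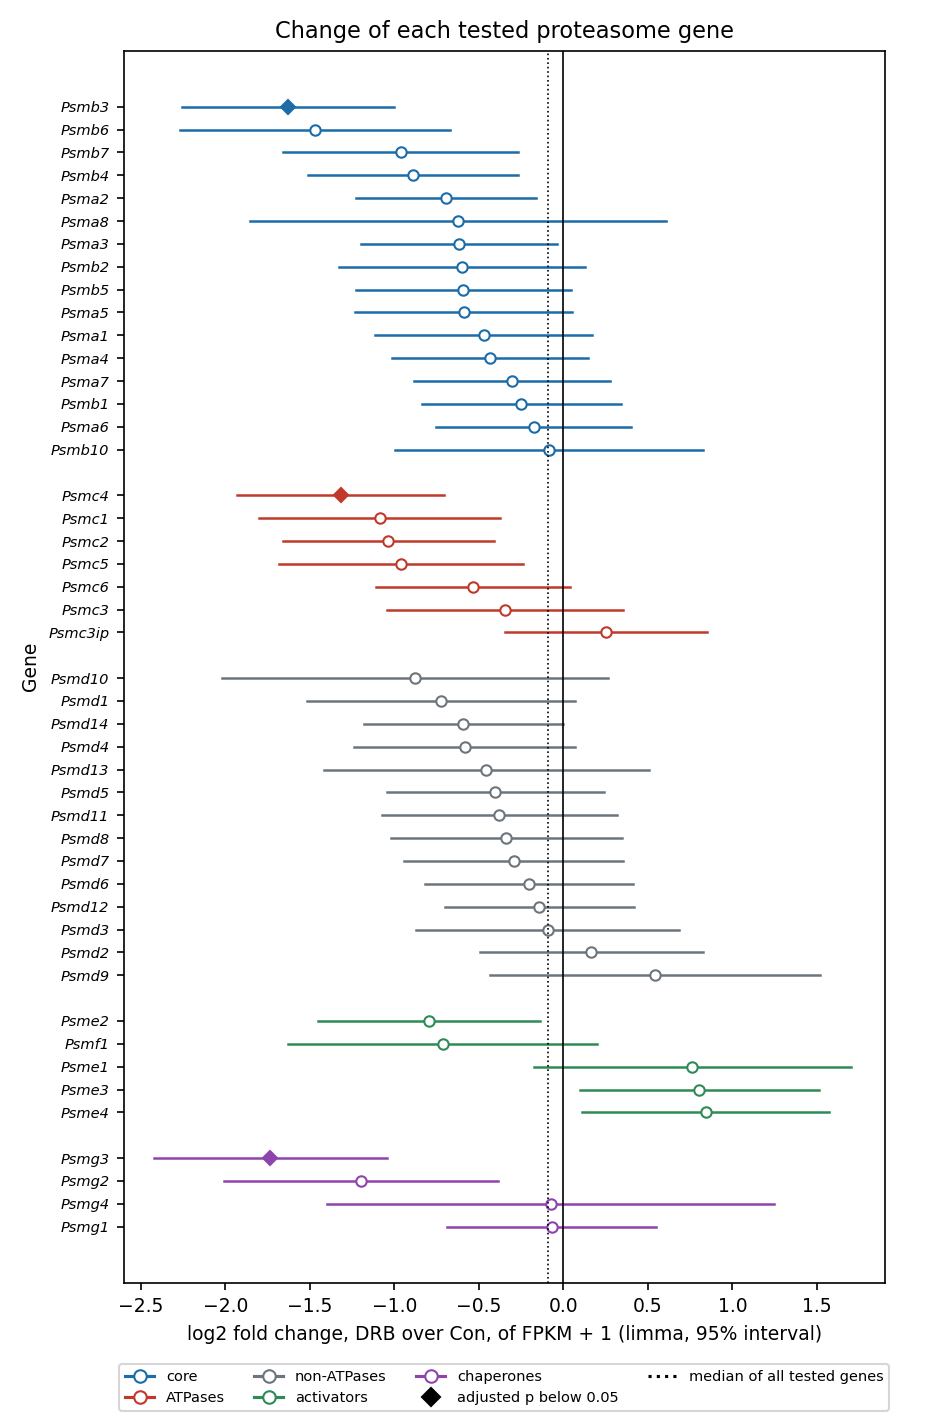
log2 fold change of DRB over Con of FPKM + 1 (horizontal axis) with its 95% interval for each of the 46 tested genes (vertical axis), ordered within each role; filled diamonds mark an adjusted p below 0.05. Psmb3 (-1.63), Psmc4 (-1.32) and Psmg3 (-1.73) are marked, and 3 of the 5 activators lie above 0.

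In the ATPase ring all 6 true ATPase genes were negative, and in all 6 every DRB library lay below every Con library, against 13.9% of all tested genes. Their median log2 fold change was -1.0, and 4 were lower at an unadjusted p below 0.05 (background 10.5%). With Psmc3ip included the median was -0.96, or -0.71 without Con replicate 1. Psmc4 fell: it was at 101.3 FPKM, 95.4 FPKM and 73.6 FPKM in Con and at 38.3 FPKM, 37.0 FPKM and 30.7 FPKM in DRB. The groups were well apart, and DRB replicate 3 was the lowest. Means were 90.1 ± 14.6 and 35.4 ± 4.11 FPKM (SD, n = 3 each), a ratio of 2.55, and the log2 fold change was -1.32 with a standard error of 0.28 (limma, adjusted p = 0.0345). The call was lost when any single library was left out, with limma adjusted p-values of 0.0679 to 0.141, and in 5 of 10 other settings.

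Psmc1, Psmc2 and Psmc5 stood near Psmc4 with log2 fold changes of -1.09, -1.04 and -0.96, but their limma adjusted p-values were 0.107, 0.0844 and 0.15. Con replicate 1 was the highest Con library for all 7 genes of the group, Psmc3ip included. Psmc6, the most abundant, was at 205 FPKM, 187 FPKM and 155 FPKM in Con and 112 FPKM, 115 FPKM and 150.5 FPKM in DRB. Its highest DRB library almost reached the lowest Con library, with a log2 fold change of -0.54 (95% interval -1.11 to 0.04). Psmc3 was the scarcest ATPase at a mean of 26.9 ± 6.29 FPKM for Con and 20.8 ± 2.70 for DRB (SD, n = 3). Psmc3ip was at 50.9 FPKM, 50.6 FPKM and 40.5 FPKM in Con and 53.5 FPKM, 59.6 FPKM and 55.8 FPKM in DRB, all DRB above all Con, at a log2 fold change of 0.25 (limma adjusted p = 0.687), or 0.14 without Con replicate 3. It overlaps Mlx on the opposite strand, and the library does not mark strand.

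The Psmd genes hold the 8 lid genes, 3 subunits of the base and 3 chaperones of the base. Of these 14 genes 12 were negative, with a median of -0.36, and 0 were called by limma. At an unadjusted p below 0.05, 1 was lower (Psmd14, the ubiquitin-removing enzyme of the lid), against 10.5% of all tested genes. In 0 were the groups apart, where 13.9% of all tested genes had DRB below and 9.85% had DRB above. The median rested on Con replicate 1, the highest Con library in 10 of the 14 genes. Without it the median was -0.11. DRB replicate 1 was the highest DRB library for 9 of these 14 genes, yet the lowest for 14 of the 16 core genes.

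Psmd7, a lid scaffold and the most abundant of the group, was at 534 FPKM, 322 FPKM and 266 FPKM in Con and 279 FPKM, 274 FPKM and 324 FPKM in DRB. Con replicate 1 alone stood above every DRB library, and the log2 fold change was -0.29 (95% interval -0.94 to 0.35). It was -0.0067 without Con replicate 1 and -0.51 without Con replicate 3. Psmd10, which guides assembly of the base, had the lowest log2 fold change, -0.88, at 10.1 FPKM, 9.23 FPKM and 6.69 FPKM in Con and 4.42 FPKM, 1.53 FPKM and 9.34 FPKM in DRB. The groups overlapped because DRB replicate 3 lay within the Con range, and the value was -0.35 without DRB replicate 2 and -1.37 without DRB replicate 3. Psmd9, another base chaperone, had the highest, 0.54, at 22.7 FPKM, 9.31 FPKM and 7.49 FPKM in Con and 18.9 FPKM, 22.8 FPKM and 12.5 FPKM in DRB. Con replicate 1 lay among the DRB libraries, and the value was 0.99 without it and 0.25 without Con replicate 3. Psmd9 overlaps the antisense gene Gm26745 over 1849 bases. The base scaffolds Psmd1 and Psmd2 had log2 fold changes of -0.73 and 0.17, and the ubiquitin receptor Psmd4 one of -0.58.

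Subunits that are present in equal numbers in the finished particle did not have equal RNA levels. In Con the highest mean FPKM exceeded the lowest 4.42-fold in the alpha ring (Psma3 over Psma1), 3.65-fold in the beta ring (Psmb2 over Psmb5), 7.32-fold in the base (Psmd4 over Psmc3) and 41.2-fold in the lid (Psmd7 over Psmd13). In DRB these ratios were 5.49, 5.56, 6.48 and 48.4. The lowest beta gene in DRB was Psmb3 in place of Psmb5. These are ratios of mean levels per length, with no test. Reads of Psmb5 and Psma3 may have been split with their near copies Gm3375 and Gm13835, which could alter the ratios of their rings.

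Of the 5 tested activator genes 3 had a positive log2 fold change, and limma called 0 in either direction. The median log2 fold change over the 5 was 0.76. At an unadjusted p below 0.05, 1 was lower and 2 were higher (backgrounds 10.5% and 7.53%). Psme3, which forms the nuclear activator ring, was at 34.5 FPKM, 42.8 FPKM and 48.1 FPKM in Con and 90.5 FPKM, 49.0 FPKM and 87.6 FPKM in DRB. All DRB libraries lay above all Con libraries, although DRB replicate 2 barely so. The log2 fold change was 0.80 (95% interval 0.10 to 1.51, limma adjusted p = 0.217). Psme4, the large nuclear activator tied to acetylated histones, was at 36.9 FPKM, 38.4 FPKM and 51.5 FPKM in Con and 84.9 FPKM, 103 FPKM and 49.4 FPKM in DRB. DRB replicate 3 lay within the Con range, and the log2 fold change was 0.84 (95% interval 0.11 to 1.57, limma adjusted p = 0.214).

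Psme1 and Psme2 encode the partners of the interferon-inducible activator ring. Psme2 was at 31.8 FPKM, 39.2 FPKM and 41.7 FPKM in Con and 21.2 FPKM, 24.0 FPKM and 18.4 FPKM in DRB. All its DRB libraries were below Con, with a log2 fold change of -0.79 (95% interval -1.45 to -0.14, limma adjusted p = 0.193). Psme1 was at 15.0 FPKM, 39.96 FPKM and 12.4 FPKM in Con and 36.8 FPKM, 27.4 FPKM and 39.0 FPKM in DRB. Con replicate 2 was above every DRB library, and the log2 fold change was 0.76 (95% interval -0.18 to 1.70), with 1.26 without Con replicate 2 and 0.45 without Con replicate 3. The ratio of Psme3 to Psme2 was 1.09, 1.09 and 1.15 in Con and 4.26, 2.04 and 4.76 in DRB. This ratio had to separate the groups, because Psme3 was higher and Psme2 lower in every DRB library. The ratio of Psme1 to Psme2 was 0.473, 1.02 and 0.298 in Con and 1.73, 1.14 and 2.12 in DRB, without overlap. The ratio of Psme4 to Psme3 overlapped, at 1.07, 0.897 and 1.07 in Con and 0.939, 2.11 and 0.564 in DRB. These activator ratios were not tested. Psmf1, which encodes an inhibitor of the core, had a log2 fold change of -0.72 with overlap, and Psme2b stayed below 1 FPKM.

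**Figure D4:**
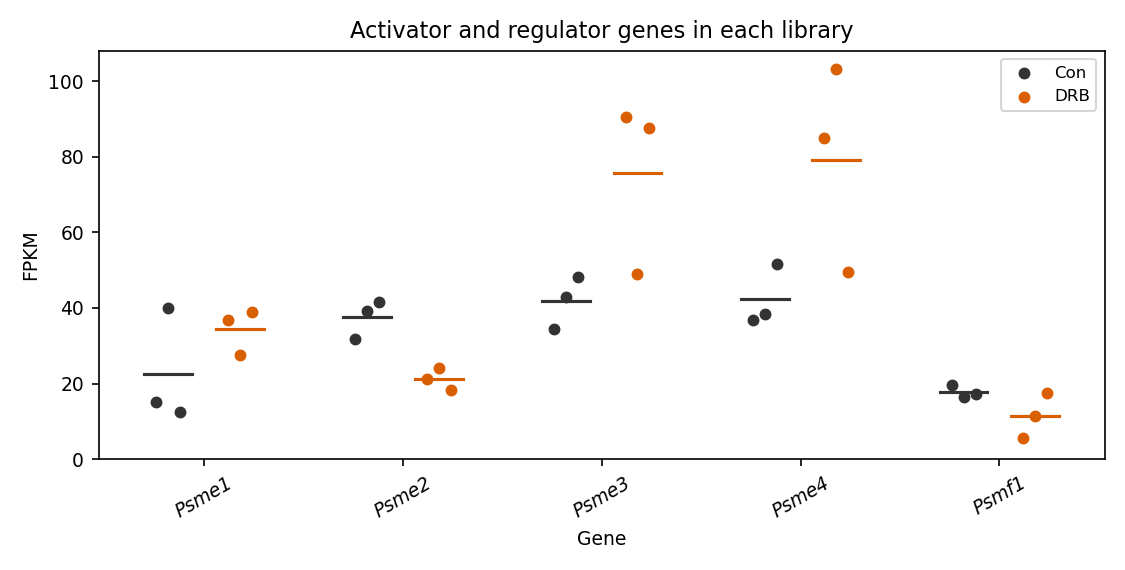
FPKM (vertical axis, from 0) of the 5 tested activator and regulator genes (horizontal axis) in each library, Con in black and DRB in orange, with bars at the group means. Psme3 and Psme4 sit higher in DRB (means 75.7 and 79.2 FPKM against 41.8 and 42.3), and Psme2 lower (21.2 against 37.6).

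The 4 assembly chaperones work in pairs that start the alpha ring, Psmg1 with Psmg2 and Psmg3 with Psmg4. Within each pair 1 partner was lower in every DRB library and the other overlapped. That made 2 of 4 genes with all DRB below all Con libraries, against 13.9% of all tested genes. Psmg3 fell, from 87.7 FPKM, 71.3 FPKM and 59.5 FPKM in Con to 16.5 FPKM, 20.0 FPKM and 27.6 FPKM in DRB. The lowest Con library was far above the highest DRB library. The means were 72.8 ± 14.1 and 21.4 ± 5.64 FPKM (SD, n = 3 each), a ratio of 3.41, and the log2 fold change was -1.73 with a standard error of 0.31 (limma, adjusted p = 0.0182). The call was lost without Con replicate 1 or 2 or DRB replicate 1 or 2, with limma adjusted p-values of 0.0557 to 0.0690, and kept without Con replicate 3 or DRB replicate 3.

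Its partner Psmg4 was at 13.8 FPKM, 12.5 FPKM and 8.04 FPKM in Con and 2.83 FPKM, 20.9 FPKM and 17.4 FPKM in DRB. DRB replicate 1 was the lowest and DRB replicate 2 the highest of all 6, and the log2 fold change of -0.08 had a 95% interval of -1.40 to 1.25. Psmg2 was at 15.9 FPKM, 18.3 FPKM and 19.1 FPKM in Con and 5.09 FPKM, 7.09 FPKM and 10.04 FPKM in DRB, with no overlap and a log2 fold change of -1.20 (95% interval -2.01 to -0.39, limma adjusted p = 0.117). Psmg1 was at 39.6 FPKM, 45.0 FPKM and 40.8 FPKM in Con and 33.3 FPKM, 43.3 FPKM and 43.5 FPKM in DRB. Its groups overlapped, at a log2 fold change of -0.07 (95% interval -0.69 to 0.55). The signs of Psmg1 and Psmg4 turned positive under median-of-ratios and upper-quartile scaling and without mitochondrial genes.

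**Figure D5:**
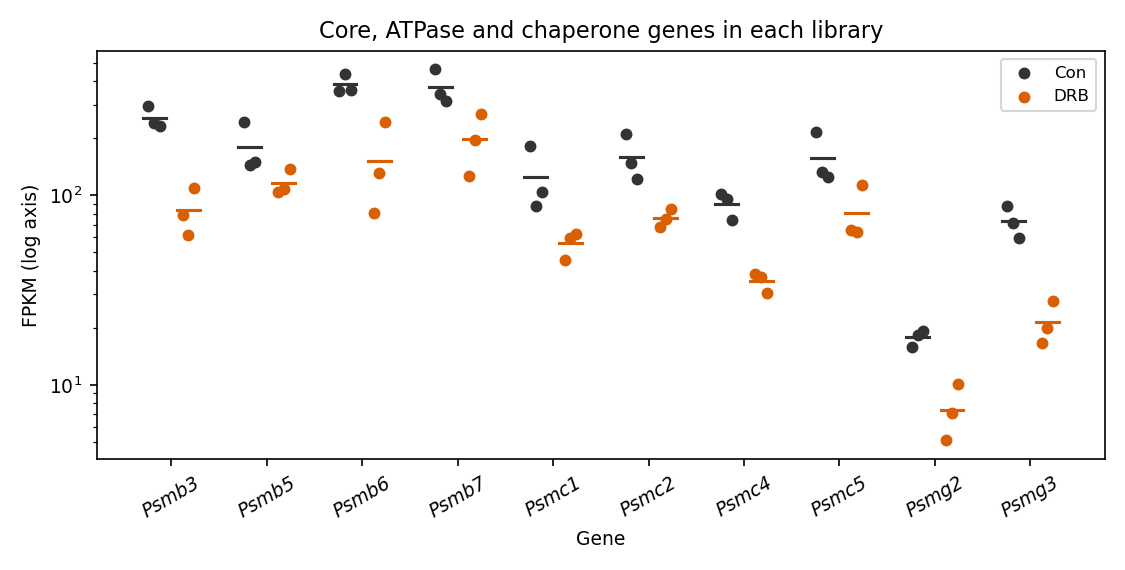
FPKM on a log axis (vertical) of 10 core, ATPase and chaperone genes (horizontal axis) in each library, Con in black and DRB in orange, with bars at the group means. Each of the 10 genes shown has its DRB libraries below its Con libraries, and genes of these roles that overlapped are not shown. Such separation held for 9 of 16 tested core, 6 of 7 Psmc and 2 of 4 chaperone genes, against 13.9% of all tested genes. The gap is wide for Psmb3 (at most 109.6 against at least 230.4) and Psmg3 (27.6 against 59.5), and narrow for Psmb5.

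The promoters of the 3 called genes, with Psmb6 and Psme4 as a near-threshold gene and the highest log2 fold change, show what sequence the members do and do not share. The windows run from 250 bases before to 50 bases after the RefSeq start (build GRCm38.p6), 5′ to 3′ along the gene: Psmb3 at chr11:97703184-97703483 (plus strand), Psmc4 at chr7:28050043-28050342 (minus), Psmg3 at chr5:139826845-139827144 (minus), Psmb6 at chr11:70525107-70525406 (plus) and Psme4 at chr11:30771525-30771824 (plus). Of the 50 genes 42 had a window. Capitals mark CCAAT, the box bound by the factor NF-Y, or TGACNNNGC, the core of the antioxidant response element that proteasome gene activators of the Nfe2l family bind. Both strands were searched, and the capitals in Psme4 are a match on the opposite strand.
Psmb3: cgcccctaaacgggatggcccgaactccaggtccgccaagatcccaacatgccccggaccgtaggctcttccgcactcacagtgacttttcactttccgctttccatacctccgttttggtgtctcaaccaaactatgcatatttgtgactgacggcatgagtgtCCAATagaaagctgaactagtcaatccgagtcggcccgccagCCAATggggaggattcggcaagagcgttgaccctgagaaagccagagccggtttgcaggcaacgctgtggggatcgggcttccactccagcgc
Psmc4: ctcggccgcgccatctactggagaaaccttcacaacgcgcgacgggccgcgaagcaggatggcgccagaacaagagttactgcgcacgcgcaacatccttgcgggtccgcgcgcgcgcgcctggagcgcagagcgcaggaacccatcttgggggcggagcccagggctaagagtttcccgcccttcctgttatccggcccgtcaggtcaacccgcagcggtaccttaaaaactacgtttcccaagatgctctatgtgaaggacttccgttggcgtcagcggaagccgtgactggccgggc
Psmg3: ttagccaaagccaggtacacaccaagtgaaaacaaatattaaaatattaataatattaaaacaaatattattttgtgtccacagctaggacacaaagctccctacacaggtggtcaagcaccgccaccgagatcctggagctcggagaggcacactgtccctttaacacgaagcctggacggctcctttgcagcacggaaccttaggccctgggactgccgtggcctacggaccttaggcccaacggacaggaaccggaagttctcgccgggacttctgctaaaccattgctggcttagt
Psmb6: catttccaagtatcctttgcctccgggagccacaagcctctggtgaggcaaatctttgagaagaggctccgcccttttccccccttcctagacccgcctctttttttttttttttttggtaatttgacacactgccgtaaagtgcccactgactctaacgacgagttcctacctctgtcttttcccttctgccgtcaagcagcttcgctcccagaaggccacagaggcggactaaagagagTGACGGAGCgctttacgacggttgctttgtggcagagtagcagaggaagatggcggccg
Psme4: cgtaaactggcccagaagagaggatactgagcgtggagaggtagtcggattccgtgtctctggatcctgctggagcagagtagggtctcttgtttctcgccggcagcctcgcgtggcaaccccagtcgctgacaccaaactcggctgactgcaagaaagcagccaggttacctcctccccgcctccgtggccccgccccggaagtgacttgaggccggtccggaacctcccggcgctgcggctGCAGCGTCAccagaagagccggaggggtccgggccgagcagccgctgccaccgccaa

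The motifs were about as frequent in these windows as in those of other genes. TGACNNNGC stood in 6 of 42 members (14.3%: Psmb5, Psmb6, Psmc6, Psmd12, Psmd9 and Psme4) and in 3781 of 27025 genes (13.99%). CCAAT stood in 15 of 42 members (35.7%) and in 41.1% of all windows. Psmb3 held 2 CCAAT boxes on its own strand, Psmb6 and Psme4 held 1 TGACNNNGC each near the start, and Psmc4 and Psmg3 held neither motif. The median log2 fold change was -0.34 over the 6 tested members with TGACNNNGC and -0.53 over the 32 without. It was -0.59 over the 13 with CCAAT and -0.43 over the 25 without. These are descriptions of letters in the window, with no test.

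Genes that work with the proteasome were evenly split in sign. Of 32 tested genes for ubiquitin, its activation, shuttling, proteasome-bound enzymes and regulators, 16 were negative and 16 positive, with a median log2 fold change of -0.01. Limma called 1 lower, Usp14, and 0 higher (backgrounds 0.950% and 1.53% of all tested genes). At an unadjusted p below 0.05, 1 was lower and 1 higher (backgrounds 10.5% and 7.53%). Usp14, a deubiquitinase that binds the base of the regulatory particle, fell from 421 FPKM, 239 FPKM and 226 FPKM in Con to 66.8 FPKM, 114 FPKM and 95.1 FPKM in DRB. All DRB libraries were below all Con libraries. Its log2 fold change was -1.65 with a standard error of 0.32 (limma, adjusted p = 0.0250). The call was kept without DRB replicate 2 and lost without any other library, with limma adjusted p-values of 0.0518 to 0.0827.

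The next lowest were Uba1, the main ubiquitin-activating enzyme (-0.64), the polyubiquitin gene Ubb (-0.55) and Uchl5, another proteasome-bound deubiquitinase (-0.54). Uba1 was at -0.29 without DRB replicate 2 and Ubb at -0.34 without Con replicate 1. At the other end Ubqln2, a shuttle that brings ubiquitinated proteins to the proteasome, was at 2.17 FPKM, 3.05 FPKM and 8.23 FPKM in Con and 27.3 FPKM, 9.54 FPKM and 10.1 FPKM in DRB. All DRB libraries lay above Con, with DRB replicate 1 far above the others, at a log2 fold change of 1.60 (95% interval 0.43 to 2.77, limma adjusted p = 0.141). Zfand2a (0.82) and Bag6 (0.77) were also among the higher values, and neither was called. Zfand2a was at 0.38 without DRB replicate 1. Nfe2l1, the transcription factor known to induce proteasome genes, was at 5.99 FPKM, 2.68 FPKM and 6.39 FPKM in Con and 3.61 FPKM, 8.64 FPKM and 2.69 FPKM in DRB, with a log2 fold change of -0.07. The core maturation factor Pomp stood at -0.23 and the lid subunit Sem1 at 0.01, whose symbols do not carry the Psm prefix.

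Length, GC content and starting level did not order the members strongly. Across the 46 tested genes the rank correlation of log2 fold change with transcript length was 0.08, with GC content 0.22 and with mean Con level -0.23. Over all tested genes it was 0.08, -0.17 and -0.26. Genes of the same libraries are not independent replicates, so these are descriptions. The Con values also enter the fold change, so noise in them tends by itself to make the correlation with Con level negative.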

How the data were processed

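RNA was measured by Smart-Seq2 in 6 libraries of mouse 4-cell embryos, 3 Con and 3 DRB, per the labels' protocols, which give paired reads of 150 bases. The submitters' processing notes name cutadapt 1.16, STAR and mm10; no quantification tool or annotation release is given in the sources used here. The authors deposited FPKM with 2 decimals for 55335 genes, per the file headers. FPKM divides by length and by the library's total. Limma was planned for FPKM and a count test only for counts, so the latter was not run.

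GENCODE M21, built on GRCm38 as is mm10, held 55154 of the IDs and lacked 181; all 50 members were in it. Depth was estimated from low values, where FPKM moves in steps of 1 fragment: Con replicate 1 came to 23100000 fragments, replicate 2 to 23500000 and replicate 3 to 22200000, and DRB replicate 1 to 23200000, replicate 2 to 22000000 and replicate 3 to 25300000. Between 70.8% and 79.6% of these values lay within 0.15 of a whole number. A single fragment on 1 kb was worth 0.0471 to 0.0543 FPKM. Whole counts were not rebuilt.

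Genes with at least 1 FPKM in at least 3 libraries, 11893, were fitted with limma 3.58.1 (R 4.3.3) after taking log2(FPKM + 1): mean-variance trend, group as the single term, two-sided, with a Benjamini-Hochberg adjusted p below 0.05 as the call. A fold change sets DRB over Con on this scale, which understates changes of low genes. In 5 simulated runs with 200 changed genes among 11893, limma recovered 5.2% of genes with a log2 change of 1, 49.2% at 2, 84.4% at 3 and 92.4% at 4. Same-numbered libraries did not deviate together (correlations -0.05, 0.05 and -0.05), so the numbers were not taken as pairs.

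The members, the lists and the rule for named genes were chosen with earlier results of these data known. The rule took the called members, the most abundant and the highest and lowest log2 fold change of each role, the catalytic subunits, activators and chaperones, and of the associated genes those called and the 4 highest and 4 lowest, of which 1 is not reported here. Other members and Nfe2l1, Pomp and Sem1 were named after their values were seen. Of 36 listed associated genes 35 were found, and Paaf1 was not analysed here; Nfe2l3, Midn and Ddi1 were not tested. Near copies, with at least 95% identity over at least 250 bases, were found with blastn 2.17.0, and promoters come from RefSeq. Figures were drawn with matplotlib 3.10.9 and tables made with pandas 2.3.3 and numpy 2.4.6 in Python 3.11.15. The alternatives are another pseudocount (0.1), no filter or at least 5 FPKM, median-of-ratios and upper-quartile scaling, leaving out mitochondrial genes, a GC trend or transcripts under 200 bases, the replicate block, no trend, a threshold of 0.01 and leaving out each library; counts without Psmc3ip and Psme2b were added after seeing the data.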

Additional observations from a re-analysis of the deposited data

How the results depend on the processing

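Of the members, 3 were called lower by limma. The number was 0 with no filter on low values, 1 with the replicate number as a block and 1 with no mean-variance trend. It was 0 at an adjusted p below 0.01, and 0 to 3 when each library was left out in turn. With a pseudocount of 0.1 or without mitochondrial genes 2 were called, without Psmc4 (limma adjusted p = 0.0511 and 0.0662). With at least 5 FPKM or without transcripts under 200 bases 4 were called, Psmb6 among them (limma adjusted p = 0.0437 and 0.0244). The 1 associated gene called lower became 0 with no filter, 0 with the replicate block, 0 with no trend, and 0 to 1 leaving out each library. The median log2 fold change of the non-ATPases was -0.46 to -0.11 and that of the activators 0.45 to 0.78 when each library was left out, and the latter was 0.35 with no filter, where Psme2b enters. The summed share was 0.981% in Con and 0.756% in DRB without mitochondrial genes in the total. Signs reversed for some genes near 0. Psmb10 became 0.024 under median-of-ratios scaling, 0.047 without mitochondrial genes, 0.12 with the GC trend removed, and -0.46 to 0.37 when each library was left out. Psmg1 became 0.039 under median-of-ratios and 0.012 under upper-quartile scaling, 0.060 without mitochondrial genes, 0.017 with the GC trend removed, and -0.13 to 0.055 when each library was left out. Psmg4 became 0.038, 0.011, 0.027 and 0.095 in the same settings, and -0.54 to 0.72 when each library was left out. Psma6 was at -0.30 to 0.014 when each library was left out. With no filter more genes were tested (27554 against 11893) and with a library left out fewer samples remained; the other causes were not tested. Over all tested genes, 113 lower and 182 higher calls became 84 and 223 under median-of-ratios scaling. Without Psmc3ip and Psme2b the members' median was -0.54. With 3 libraries a group, changes of 1 on the log2 scale were mostly missed in the simulation, which drew from all tested genes and not from the members.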

Other observations

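The libraries of a group did not order the members alike. Con replicate 1 was the highest Con library for 31 of the 46 tested genes and Con replicate 3 the lowest for 29. DRB replicate 3 was the highest DRB library for 26 and DRB replicate 1 the lowest for 25. Stretches nearly identical to other genes were found for 10 of the 50 members, in 17 other genes, of which 9 exceeded 1 FPKM in a library. The 17 include Psme2 and Psme2b, which match each other and are members themselves, and Psme2 is among the 9. Gm3375, the copy of Psmb5, was at 107.4 FPKM, 49.9 FPKM and 30.4 FPKM in Con and 20.7 FPKM, 24.6 FPKM and 44.1 FPKM in DRB, up to 43.9% of the highest Psmb5 value. Gm13835, the copy of Psma3, was at 118 FPKM, 134.1 FPKM and 117 FPKM in Con and 39.97 FPKM, 57.8 FPKM and 93.8 FPKM in DRB, with all DRB libraries below all Con libraries, as for Psma3 itself. Psmg3 shares 280 exonic bases with Gm26938 on the same strand, which was at 0 FPKM in every library.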
